A study of Rattus norvegicus with 27 samples.

Results

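The 32 genes described here encode lysosomal enzymes, their helper proteins, proteins of the lysosomal membrane and TFEB, a transcription factor of lysosomal genes. They were chosen by symbol as known lysosomal genes, and all 32 were found among the 36865 rows of the count table, of which 27825 carried a RefSeq symbol. Glb1, which encodes lysosomal beta-galactosidase, was the starting point, because the study lists it with genes related to light-dark test behaviour, and the question was whether it varied between animals together with the other lysosomal genes. RNA was sequenced from the medial prefrontal cortex (mPFC) of 27 adult male Wistar rats, 1 library per rat. The animals had been tested repeatedly in the plus-maze, the light-dark box and the open field, at first at baseline and then in brighter light, and they were taken in a resting state from the home cage weeks after the last test, every other rat along a composite anxiety scale. All 27 rats were of the same outbred strain, no genetic change or drug is named for them, and they formed 1 group with no untested control group. The sample labels also list acoustic startle and fear conditioning and give learned helplessness as the treatment, which the study's methods do not name for these rats. No anxiety score of any animal was used, so expression was not related to behaviour.

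Lysosomes break down proteins, sphingolipids, glycosaminoglycans and glycogen with acid hydrolases, most of which are carried there by mannose 6-phosphate tags. Loss of 1 of these hydrolases, activators or transporters is known to cause a storage disease, often with neuronal loss, myelin loss or microglial storage. TFEB and its relatives are known to bind an E-box with the core CACGTG in the promoters of many lysosomal genes and to raise their transcription together when the factor enters the nucleus.

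Because that shared promoter element is the textbook basis for expecting the genes to move together, RefSeq promoters (assembly GRCr8, 250 bases before to 50 bases after the start) were searched for it on both strands. A promoter was at hand for 25 of the 32 genes. The palindrome CACGTG was found in 7 of the 25 (28%), namely Glb1, Ctsd, Ctsf, Galc, Gaa, Lamp1 and Mcoln1, and in 6.42% of all 33469 promoters of this length. With a T before the core or an A after it (TCACGTG or its complement, a form that contains the first), the shares were 24% and 3.20%. Of the promoters of all genes, 0.777% held the longer palindrome TCACGTGA, and of the member promoters 16%. The windows printed here are that of Glb1 (chr8:122963468-122963767, plus strand), that of Lamp1, with the most copies (chr16:83075014-83075313, minus strand), and those of Mcoln1 (chr12:6358008-6358307, plus strand) and Ctsd (chr1:206968772-206969071, minus strand), which held the motif and differed between sets of libraries. They are written 5′ to 3′ on the strand of the gene, and capitals mark each copy of the core.
Glb1 promoter: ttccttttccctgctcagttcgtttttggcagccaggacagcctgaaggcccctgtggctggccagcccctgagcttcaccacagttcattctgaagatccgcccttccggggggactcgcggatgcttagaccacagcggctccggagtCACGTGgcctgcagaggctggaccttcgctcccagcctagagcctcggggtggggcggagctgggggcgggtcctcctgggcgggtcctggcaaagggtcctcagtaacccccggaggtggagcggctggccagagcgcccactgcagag
Lamp1 promoter: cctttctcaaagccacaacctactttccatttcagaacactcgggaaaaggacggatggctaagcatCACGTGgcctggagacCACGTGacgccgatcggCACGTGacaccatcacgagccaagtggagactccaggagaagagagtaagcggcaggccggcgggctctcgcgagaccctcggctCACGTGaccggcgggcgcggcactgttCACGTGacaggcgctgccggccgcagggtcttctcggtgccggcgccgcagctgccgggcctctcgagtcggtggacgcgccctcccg
Mcoln1 promoter: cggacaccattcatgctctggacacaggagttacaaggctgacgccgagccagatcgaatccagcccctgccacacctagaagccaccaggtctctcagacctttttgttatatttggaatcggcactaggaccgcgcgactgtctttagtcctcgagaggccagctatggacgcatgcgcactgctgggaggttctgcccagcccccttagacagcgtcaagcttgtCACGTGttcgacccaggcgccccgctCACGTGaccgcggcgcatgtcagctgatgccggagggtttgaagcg
Ctsd promoter: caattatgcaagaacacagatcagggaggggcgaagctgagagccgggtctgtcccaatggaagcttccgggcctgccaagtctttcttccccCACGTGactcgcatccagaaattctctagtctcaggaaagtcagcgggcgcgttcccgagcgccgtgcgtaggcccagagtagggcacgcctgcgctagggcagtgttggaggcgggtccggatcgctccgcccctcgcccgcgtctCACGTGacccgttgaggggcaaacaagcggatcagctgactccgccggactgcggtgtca
The copy in Glb1 began 100 bases before the start, the copy of Ctsd nearest to the start began 10 bases before it, and the copies of Mcoln1 began 22 bases before the start and at base 5, counting the start as base 1. Lamp1 held 5 copies within 183 bases. Only 1 window per member was searched, so these counts hold for that start alone. The windows of Lamp1, Mcoln1, Galc and Tfeb lay inside the RefSeq bounds of the gene, so the start used was not the outermost one. A match of letters is no evidence that TFEB occupies the site in this tissue, which was not measured.

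Between 4907255 and 12771309 reads per rat had been counted on genes. The number in the library name parted these totals. The 16 libraries numbered up to 31 had at most 8568317 counts and the 11 libraries numbered from 32 had at least 9404220, so relations are also given within these 2 blocks. What else the blocks differ in is not stated in the labels. The study's methods describe 2 cohorts of male Wistar rats, and which rats belonged to which was not used here, so the relation of the cohorts to the blocks was not tested. Levels are counts divided by DESeq2 size factors (normalized counts), and they also reflect the length of the transcript, so they are compared between rats and not as abundance between genes. Rats 12 and 20 stood apart in ribosomal RNA, with 19987 and 16899 normalized counts of Rn18s against 853 to 5243 in the others. Rat 3 stood apart in the lysosomal genes themselves. It had the highest level of 12 members and the lowest of 4, together with the highest oligodendrocyte marker score (2.19) and the lowest neuron marker score (-1.53) of all rats. A marker score is the mean z score of log2 levels over a list of cell type genes. In bulk tissue, fewer cells of a type and less RNA per cell cannot be told apart.

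A total of 31 of the 32 genes had a mean count of at least 10. Naglu, the enzyme that removes N-acetylglucosamine from heparan sulfate, was listed at 0 in all 27 libraries, as were 7 genes of the further lysosomal lists used below (Sgsh, Hgsnat, Ids, Ctss, Ctso, Gnptab and Mitf). A listing at 0 can arise in the counting, so it is not read as a lack of expression. The 31 genes together took 0.547% of all counts (0.519% to 0.627% over the rats), and Psap alone supplied 36.9% of these. All 31 varied between rats beyond counting noise (chi-square dispersion test, adjusted p under 0.05), as did 89.8% of all 11730 genes tested, so this did not set them apart. Their spread was modest. The median SD of log2 levels was 0.14 over the 31 genes and 0.19 over all genes, and 7 of the 31 lay above the median of all genes.

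Among the glycosidases, Glb1 had 108, 172 and 214 normalized counts as its lowest, median and highest value (161 ± 35.6, SD, n = 27), with an SD of log2 levels of 0.33, larger than in 78.2% of all genes. The lowest levels were in rats 18, 20 and 13 and the highest in rats 3, 39 and 5. The widest gap between neighbouring rats was 16.5 counts, from 156 to 172, and 11 of the 13 rats below it were in the block up to 31. Gusb, beta-glucuronidase, had the lowest mean of the 31 genes with counts and a spread like that of Glb1, with 45.0, 58.7 and 112 counts (64.8 ± 16.3). Counting alone would give 24.9% of the variance of Gusb and 13% of that of Glb1. Hexa, the alpha subunit of beta-hexosaminidase, had 563, 656 and 902 counts (674 ± 87.7), highest in rats 3 and 28.

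Galc, which splits the myelin lipid galactosylceramide, had 44.3, 70.1 and 87.9 counts, of which counting alone would give 54.3% of the variance. It was lowest in rat 3, the animal with the highest oligodendrocyte score. Gaa, the glycogen-degrading alpha-glucosidase, was also lowest in rat 3 (1968, 2406 and 2992 counts). The remaining glycosidases Gla, Neu1, Man2b1 and Manba, which remove galactose, sialic acid and mannose residues, had means from 200 for Manba to 455 for Man2b1 and SDs of log2 levels from 0.10 to 0.18.

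The sulfatase Arsb, which acts on dermatan and chondroitin sulfate, ranged from 349 in rat 3 to 670 in rat 12 with a median of 571, while Arsa, which acts on sulfatide, ranged from 257 to 391 with a median of 326. The lipid hydrolases Asah1 (ceramide), Smpd1 (sphingomyelin) and Lipa (cholesteryl esters) and the depalmitoylating enzyme Ppt1 were steady, with SDs of log2 levels between 0.08 and 0.12. Tpp1, a tripeptidyl peptidase, was equally steady (431, 476 and 597 counts).

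The cathepsins differed widely in spread. Ctsb, an abundant cysteine protease, had the smallest SD of log2 levels of all 31 genes, 0.05, and 0.0341% of all genes had a smaller one (5382, 5686 and 6103 counts, 5719 ± 213). Ctsz, another cysteine protease, ranged from 183 in rat 12 to 463 in rat 3 with a median of 248, an SD of log2 levels of 0.32. Ctsd, the main aspartic protease, had 2542, 2954 and 3938 counts, the last in rat 3. Ctsa, Ctsf and Ctsl had SDs of 0.10, 0.07 and 0.17.

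Psap, the precursor of the saposins that present sphingolipids to the hydrolases, had the highest mean of all members, 17380 ± 1431 counts (lowest 15336, median 17161, highest 21600, the last in rat 3). Gm2a, the activator that presents ganglioside GM2 to beta-hexosaminidase, had 525, 621 and 736 counts. Npc2, which hands cholesterol to NPC1, had 766, 912 and 1404 counts, the last in rat 3.

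Of the membrane proteins, Lamp1 and Lamp2, the main glycoproteins of the lysosomal coat, had 3667 ± 248 and 617 ± 78.5 counts. Scarb2, a receptor that sorts cargo to lysosomes, varied most among them, from 431 in rat 3 to 1029 in rat 12 with a median of 709 (SD of log2 levels 0.29). Npc1, the cholesterol exporter, had 396, 511 and 608 counts, and Mcoln1, the calcium channel TRPML1, had 554, 639 and 734. Tfeb, the regulator, had 77.9, 107 and 185 counts (113 ± 22.5), with rat 3 well above the next rat at 146.

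**Figure D1:**
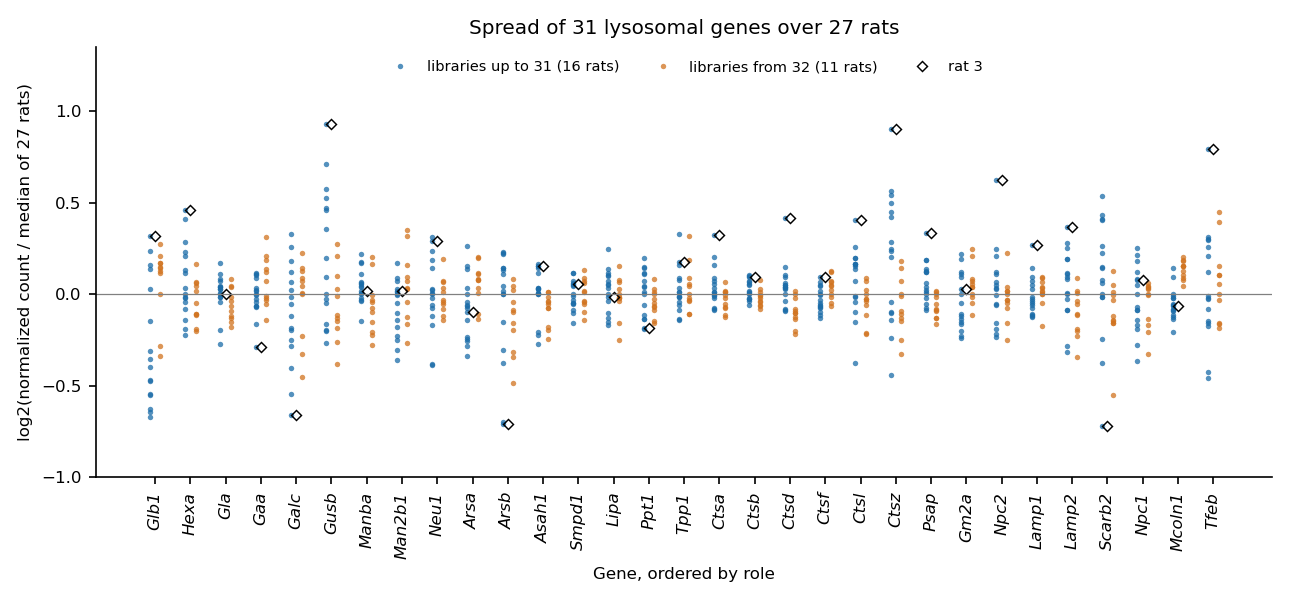
Each point is 1 rat, plotted as the log2 ratio of its normalized count to the median of the 27 rats, for 31 lysosomal genes ordered by role (hydrolases, cathepsins, activators, membrane proteins, Tfeb). Colours mark the library blocks and the open diamonds mark rat 3, which lies at the top for 12 genes, Tfeb, Ctsz, Npc2 and Gusb among them, and at the bottom for Scarb2, Arsb, Galc and Gaa.

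To ask whether Glb1 moved with the other lysosomal genes, the expression of all genes was regressed on log2 Glb1 over the 27 rats with edgeR's quasi-likelihood test. No member was called at an adjusted p under 0.05, and 50 of 11830 genes were (0.423%). At an unadjusted p under 0.05 there were 7 of 30 members against 17.3% of all genes, 6 of the 7 rising with Glb1. The median slope of the 30 members was 0.009 log2 units per SD of Glb1, against 0.003 for all genes. DESeq2's Wald test called 2 members, Gm2a and Tfeb, among 269 genes (2.57% of 10486).

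Nearest to the threshold were Gm2a, with a slope of 0.084 ± 0.023 (SE) per SD of Glb1, and Tfeb, with 0.16 ± 0.044 (edgeR adjusted p = 0.0862 for both). Over the alternative settings the adjusted p ran from 0.0346 to 1.000 for both genes. Arsa (0.081 ± 0.029), Npc2 (0.088 ± 0.032), Npc1 (0.062 ± 0.029) and Lamp1 (0.041 ± 0.018) had positive slopes with edgeR adjusted p values of 0.166, 0.170, 0.267 and 0.246. Lipa had the only negative slope among the 7 (-0.048 ± 0.021, adjusted p = 0.248). With the library block as a covariate, edgeR called 4 members and 0.819% of 11963 genes. The 4 rose with Glb1 and were Tfeb (0.21 ± 0.048, adjusted p = 0.0409), Npc2 (0.14 ± 0.031, 0.0409), Ctsz (0.20 ± 0.050, 0.0473) and Gusb (0.23 ± 0.056, 0.0480).

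Rank correlations also left every member short of the threshold. Spearman's rho of Glb1 with the 30 members had a median of 0.0501 (-0.00977 over 11729 genes) and ran from -0.473 for Lipa to 0.595 for Tfeb, with 16 of 30 above 0. An unadjusted permutation p under 0.05 was found for 9 members, 7 of them positive, against 14% of all genes, and none passed after adjustment over all genes. For Tfeb, rho was 0.595 (permutation p = 0.00107, adjusted over all genes 0.128) and Pearson's r of log2 levels 0.587 (permutation p = 8.50e-04, adjusted 0.0915), and r was 0.554 without rats 18 and 20, which lay farthest from the median of Glb1. For Gm2a, rho was 0.558 (permutation p = 0.00303, adjusted 0.175) and r 0.596 (permutation p = 0.00132, adjusted 0.103), or 0.514 without these rats. For Lipa, rho was -0.473 (permutation p = 0.0135, adjusted 0.255) and r -0.427 (permutation p = 0.0265, adjusted 0.251), or -0.338 without them. Beta-hexosaminidase and the sialidase, which act on the same ganglioside pathway as beta-galactosidase, had rho values near 0 with Glb1 (Hexa 0.0965, Neu1 0.0781). Ctsa, whose product is known to form a protective complex with beta-galactosidase, had a rho of -0.411 (permutation p = 0.0354, adjusted 0.327) and an r of -0.238.

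**Figure D2:**
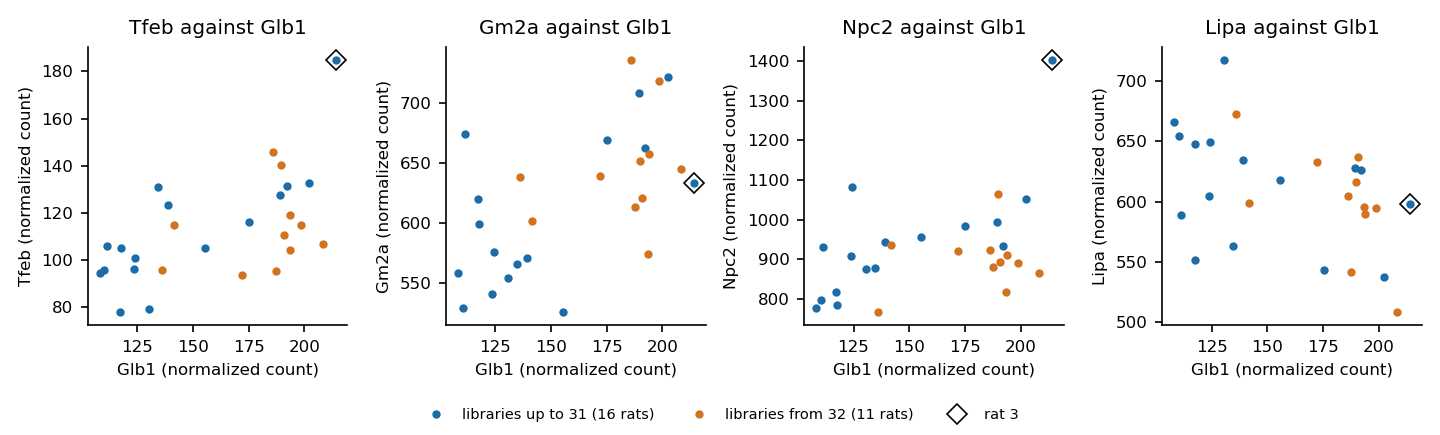
Normalized counts of Tfeb, Gm2a, Npc2 and Lipa (y axes, not starting at 0) are plotted against those of Glb1 (x axes) in 27 rats, coloured by library block, with rat 3 marked by a diamond. Tfeb and Npc2 rise with Glb1 among the 16 blue points (rho 0.815 and 0.788) and scatter among the 11 orange ones (0.209 and -0.227), whereas Lipa falls in both (-0.438 and -0.655).

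The 2 blocks gave different values. In the 16 libraries up to 31, 8 members had a rho with Glb1 of at least 0.5 (Tfeb 0.815, Npc2 0.788, Npc1 0.709, Gusb 0.641, Arsa 0.606, Ctsz 0.576, Tpp1 0.556 and Ctsd 0.503) and the median was 0.173. In the 11 libraries from 32, Gusb alone reached this value (0.582) and the median was -0.122. The sign was the same in both for 17 of the 30 members. A test of the difference itself, the interaction of Glb1 with the block in 1 edgeR fit, called no gene of 12218 (percent called 0) and 3.16% had an unadjusted p under 0.05. Arsa was the only member with an unadjusted p under 0.05 (difference in slope -0.17 ± 0.077, edgeR adjusted p = 1.000), so a difference between blocks was not established for any member. The slope was lower in the later block for most members, with a median difference of -0.063 against 0.002 over all genes and 2 of 30 above 0 against 50.7% of all genes.

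**Figure D3:**
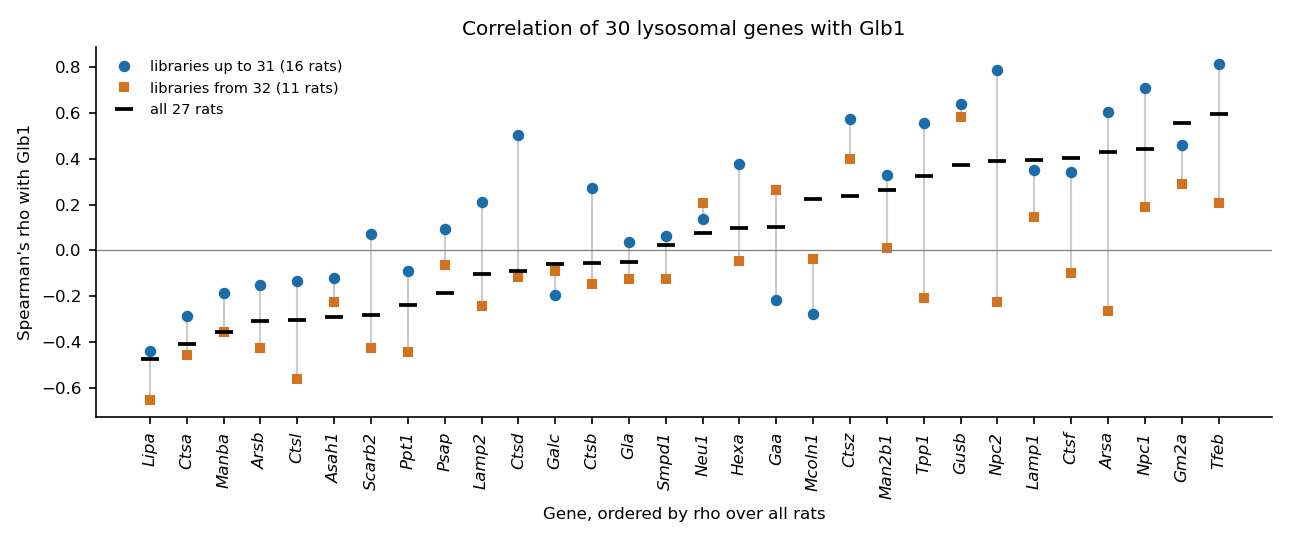
Spearman's rho with Glb1 is plotted for 30 lysosomal genes, ordered by its value over all 27 rats (black bars), with the 16 libraries up to 31 as circles and the 11 libraries from 32 as squares. The circles lie above the squares for 26 of 30 genes, with the widest separations at Npc2, Arsa and Tpp1.

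The genes whose rank order was most like that of Glb1, among genes averaging 50 or more normalized counts, were none of the members. They were Naa80, an actin N-acetyltransferase (rho 0.777), the membrane channel gene Tmem63a (0.744), Abhd1 (0.738), Plekhh1 (0.737) and Gpx3, a secreted glutathione peroxidase (0.718), with permutation p values adjusted over all genes from 0.0521 to 0.0586. Within the blocks up to 31 and from 32, rho was 0.585 and 0.545 for Naa80 and 0.635 and 0.664 for Tmem63a. It was 0.747 and 0.136 for Abhd1, 0.797 and 0.282 for Plekhh1, and 0.779 and 0.455 for Gpx3. Tmem63a and Plekhh1 are known to be strongly expressed in oligodendrocytes. The study lists Naa80 (as Nat6), Abhd1, Plekhh1 and Gpx3, like Glb1, among genes related to behaviour in the first light-dark test. Tmem63a is not in that list, which was drawn from the same libraries. Glb1 correlated with the oligodendrocyte score, with rho 0.534 (permutation p = 0.00457, 0.0320 adjusted over 7 scores) and r 0.515 (permutation p = 0.00519, adjusted 0.0363), and r was 0.369 without the 2 rats farthest from the median score. Within the blocks this rho was 0.574 and 0.118. The edgeR fit on the same score, adjusted over all genes, did not call Glb1 (0.16 ± 0.053 per SD of the score, adjusted p = 0.144). Over the alternative settings this adjusted p ran from 0.0462 to 0.995. No other score of the 7 passed for Glb1 by rank over all rats. With the neuron score Glb1 had rho -0.269 (permutation p = 0.175, adjusted over 7 scores 0.409) over all rats, -0.632 and -0.455 within the blocks up to 31 and from 32, and -0.617 with the block regressed out, which passed over all genes (adjusted permutation p = 0.0140). When the microglia, oligodendrocyte, astrocyte and meningeal fibroblast scores were added to the fit on Glb1, the slope of Tfeb was 0.10 ± 0.046 and that of Gm2a 0.059 ± 0.026 (edgeR adjusted p = 0.190 and 0.172).

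In a further 85 lysosomal genes that are no members, taken from 5 lists of hydrolases, membrane proteins, proton pump subunits, mannose 6-phosphate sorting genes and regulators, 77 could be tested and 1 was called in the fit on Glb1. It was Litaf, a late endosomal membrane protein (0.16 ± 0.04 per SD of Glb1, edgeR adjusted p = 0.0496), which was also called in the fit on the oligodendrocyte score (0.15 ± 0.04, adjusted p = 0.0245). Its call with Glb1 was lost without rats 12 and 20 (slope 0.15, edgeR adjusted p = 0.197), without rat 3 (0.14, 0.0758), in each block alone, with the block as a covariate (0.0578), with DESeq2 size factors (0.0563), without the filter on low counts (0.0682) and with the 4 marker scores as covariates (0.104), while DESeq2's Wald test called it (0.00859). The median slope was 0.001 over the 77 genes, 40 of which had a positive slope. The proton pump, which acidifies the lysosome, had 4 of 15 slopes above 0 and none called.

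Tfeb was then used as the covariate. The edgeR fit called 7 of 30 members and 11.1% of all 12026 genes. All 7 rose with Tfeb, namely Ctsz (0.20 ± 0.047 per SD of Tfeb, adjusted p = 0.00884), Glb1 (0.19 ± 0.051, 0.0213), Gusb (0.17 ± 0.056, 0.0439), Npc2 (0.12 ± 0.026, 0.00552), Hexa (0.094 ± 0.030, 0.0407), Tpp1 (0.069 ± 0.022, 0.0433) and Ctsd (0.066 ± 0.022, 0.0466). The relation of Glb1 with Tfeb is the same one that was not called in the fit on Glb1. Its unadjusted edgeR p was 0.00102 here and 0.00101 there, and only the adjustment over all genes differed. Of the 7, Glb1 and Ctsd held the core motif in the windows shown above, Hexa was not in the promoter table, and the windows of the other members named held none. Lamp1 and Mcoln1, whose windows held 5 and 2 copies, were not called. The median slope of the members was 0.015, against 0.003 for all genes. By rank correlation with Tfeb no member passed after adjustment over all genes, while 108 of 11729 genes did. The lowest adjusted permutation p of a member by rank was 0.0674, for Tpp1. By Pearson's r of log2 levels, Npc2, Ctsz, Glb1 and Tpp1 passed, with adjusted permutation p values from 0.0139 to 0.0390.

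These calls depended on the filter on low counts, without which 5 members and 7.52% of 15077 genes were called. They also depended on which animals were included. Without rat 3 no member was called with Tfeb and the calls over all genes fell from 1333 to 55, and without rats 12 and 20 the only member called was Npc2, among 231 genes. In the block up to 31, 4 members (Glb1, Ctsd, Ctsz and Npc2) and 7.59% of 11934 genes were called, and in the block from 32 no gene was. The slopes stayed positive without rat 3, at 0.20 for Glb1, 0.16 for Ctsz, 0.12 for Gusb, 0.077 for Npc2, 0.074 for Tpp1, 0.064 for Hexa and 0.024 for Ctsd. Of the further lysosomal genes, 3 of 78 rose with Tfeb (Litaf, Laptm5 and Cd63, all membrane proteins) and 6 fell. Over all 12026 genes 695 rose and 638 fell (11.1% called), and whether the lists differ from this was not tested. Among the 6 were 4 of 15 proton pump genes and Ppp3cb, a catalytic subunit of the phosphatase calcineurin. The pump genes were Atp6v1a (-0.11 ± 0.03), Atp6ap2 (-0.10 ± 0.03), Atp6v0e2 (-0.07 ± 0.02) and Atp6v1c1 (-0.06 ± 0.02), with edgeR adjusted p from 0.0235 to 0.0454. The astrocyte score passed with Tfeb by r but not by rank (r 0.564, permutation p = 0.00235, adjusted over 7 scores 0.00548, rho 0.440, permutation p = 0.0231, adjusted 0.0540, and r 0.403 without 2 rats, within blocks rho 0.662 and 0). Tfeb also correlated with the oligodendrocyte score (edgeR slope 0.16, adjusted p over all genes 0.0598, rho 0.506, permutation p = 0.00792, 0.0277 adjusted over 7 scores, r 0.588, permutation p = 0.00144, adjusted 0.00504, and 0.408 without 2 rats, within blocks rho 0.688 and 0.164) and the neuron score in the other direction (rho -0.523, permutation p = 0.00628, adjusted 0.0277, r -0.625, permutation p = 6.00e-04, adjusted 0.00420, and -0.545 without 2 rats, within blocks rho -0.600 and -0.655). The part of cell composition in the relations with Tfeb was not tested.

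The members were also set against the cell type scores. With the microglia score, built on 13 genes such as Cx3cr1 and Csf1r, 2 of 31 members rose and none fell (0.569% of 11951 genes were called). These were Npc2 (0.12 ± 0.028 per SD of the score, edgeR adjusted p = 0.0420) and Tpp1 (0.087 ± 0.019, 0.0238), and within neither block alone was a member called. With the astrocyte score, Npc2 (0.14 ± 0.023, edgeR adjusted p = 4.55e-04), Tpp1 (0.095 ± 0.018, 0.00230) and Lamp1 (0.062 ± 0.016, 0.0442) rose (1.55% of 11952 genes were called). With the oligodendrocyte score, Npc2 (0.11 ± 0.028, edgeR adjusted p = 0.0366), Npc1 (0.10 ± 0.025, 0.0351) and Lamp1 (0.064 ± 0.016, 0.0320) rose (1.50% of 12015 genes were called), and without rat 3 the members called were Npc1 and Gm2a. With the score of meningeal fibroblast genes none of the 31 was called by edgeR or by DESeq2's Wald test, and 0 had an unadjusted edgeR p under 0.05 (2.53% of 11955 genes were called). Npc2 was called with each of the 3 glial scores, and Tpp1 and Lamp1 each with 2 of them. The call of Npc2 with the microglia score was lost without rats 12 and 20 (slope 0.11), without the filter on low counts (0.12) and in each block alone (0.15 and 0.082). The call of Lamp1 with the astrocyte score was lost without rat 3 (0.043 ± 0.016, edgeR adjusted p = 0.295), without rats 12 and 20 (0.062 ± 0.017, 0.0572), with DESeq2 size factors and without the filter on low counts. Without rat 3, Lamp1 and Npc2 were also not called with the oligodendrocyte score (slopes 0.048 and 0.061). The 3 glial scores share rats in which they are all high (rat 5 had 1.38, 1.29 and 1.42 for microglia, oligodendrocytes and astrocytes), so the lists do not separate the cell types.

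Over the 465 pairs of the 31 genes, the median rho was 0.0641 (-0.00488 over all pairs of the 11730 genes). A rho of at least 0.5 was found for 42 pairs, 9.03% against 4.54% of all pairs, and a rho of -0.5 or lower for 17 pairs, 3.66% against 3.83%. The share of strongly positive pairs was higher among the members than over all pairs, and that of strongly negative pairs was close to it. Within the blocks the median was 0.0706 and 0.0909. The pairs are not independent, and no test was made of these shares.

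Besides Gla with Psap (rho 0.726, permutation p = 4.00e-05, adjusted over all genes 0.0320, r 0.631, permutation p = 5.00e-04, adjusted 0.0283, and 0.643 without 2 rats, within blocks rho 0.479 and 0.882), the 6 strongest pairs fell into 2 sets. The strongest was Arsb with Scarb2 (rho 0.779, permutation p = 1e-05, 6.70e-04 adjusted over all genes tested with Arsb, and r 0.806, permutation p = 1e-05, adjusted 3.70e-04). Within the blocks rho was 0.765 and 0.445, and r was 0.760 without 2 rats. Ppt1 joined this pair (rho with Arsb 0.723, permutation p = 2.00e-05, adjusted 9.31e-04, r 0.640, permutation p = 2.10e-04, adjusted 0.00291, and 0.767 without 2 rats, within blocks rho 0.803 and 0.600). All 3 were highest in rat 12, and Arsb and Scarb2 were lowest in rat 3.

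A second set held Hexa, Neu1, Ctsz, Ctsd and Gusb. Hexa correlated with Ctsz (rho 0.759, permutation p = 1e-05, adjusted over all genes 0.00130, r 0.832, permutation p = 1e-05, adjusted 5.08e-04, and 0.746 without 2 rats) and with Neu1 (rho 0.734, permutation p = 1e-05, adjusted 0.00130, r 0.697, permutation p = 4.00e-05, adjusted 9.69e-04, and 0.620 without 2 rats), and Ctsd with Ctsz (rho 0.770, permutation p = 1e-05, adjusted 6.48e-04, r 0.793, permutation p = 1e-05, adjusted 2.87e-04, and 0.723 without 2 rats). The smallest p that 100000 permutations can give is 1e-05. Within the blocks up to 31 and from 32, rho was 0.865 and 0.536 for Hexa with Ctsz, 0.894 and 0.436 for Hexa with Neu1, and 0.765 and 0.373 for Ctsd with Ctsz.

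Between the 2 sets rho ran from -0.750 for Neu1 with Ppt1 to 0.0794 for Ctsd with Scarb2, so some pairs were opposed and others were not. Neu1, the lysosomal sialidase, fell as Ppt1 rose (rho -0.750, permutation p = 4.00e-05, adjusted 0.00398, r -0.791, permutation p = 1e-05, adjusted 0.00147, and -0.711 without 2 rats), with -0.818 and -0.782 in the blocks, and as Arsb rose (rho -0.700, permutation p = 3.00e-05, adjusted 0.00118, r -0.637, permutation p = 3.40e-04, adjusted 0.00407, and -0.646 without 2 rats), with -0.832 and -0.609. Gaa with Manba was the third most negative pair (rho -0.621, permutation p = 6.80e-04) and did not pass over all genes (adjusted p = 0.456). Without rat 3, rho was -0.723 for Neu1 with Ppt1 and 0.752 for Arsb with Scarb2, and without rats 12 and 20 it was -0.712 and 0.743.

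Of the second set, Ctsz, Gusb, Hexa and Ctsd fell as the neuron score rose, a score built on genes such as Snap25, Syt1 and Camk2a. Of the 31 members, 6 had a rank correlation with this score at an adjusted p under 0.05 and all 6 were negative (11.1% of 11730 genes passed). With the library number block regressed out of levels and score, 9 members and 1718 genes passed. In that setting Ctsd was lost, Glb1, Man2b1, Arsb and Ppt1 were added, and Arsb and Ppt1 were positive. Ctsz had rho -0.819 (permutation p = 1e-05, adjusted over all genes 0.00118), r -0.849 (permutation p = 1e-05, adjusted 4.79e-04) and -0.764 without 2 rats, and within the blocks rho was -0.738 and -0.727. Gusb had rho -0.724 (permutation p = 9.00e-05, adjusted 0.00392), r -0.835 (permutation p = 1e-05, adjusted 4.79e-04) and -0.725 without 2 rats, with -0.735 and -0.591 in the blocks. Hexa (rho -0.656, adjusted permutation p = 0.00895), Ctsd (-0.628, 0.0112), Npc2 (-0.526, 0.0484) and Tfeb (-0.523, 0.0488) made up the 6. Within the blocks up to 31 and from 32, rho was -0.653 and -0.418 for Hexa, -0.626 and -0.0455 for Ctsd, -0.679 and -0.264 for Npc2, and -0.600 and -0.655 for Tfeb. Neu1 did not pass (rho -0.480, adjusted permutation p = 0.0788). Without rat 3, Ctsz, Gusb, Hexa and Ctsd passed among 773 genes, and without rats 12 and 20 these 4 passed among 1124. In Arsb, Scarb2 and Ppt1 rho was 0.381, 0.159 and 0.391, none past the threshold over all rats. With the block regressed out, Arsb (rho 0.524, adjusted permutation p = 0.0430) and Ppt1 (0.516, 0.0458) passed, and Man2b1 passed in the other direction (-0.623, 0.0137). Within the blocks rho was 0.606 and 0.564 for Arsb, 0.559 and 0.664 for Ppt1, and 0.541 and -0.100 for Scarb2. Whether the share of neurons accounts for the opposed pairs was not tested.

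**Figure D4:**
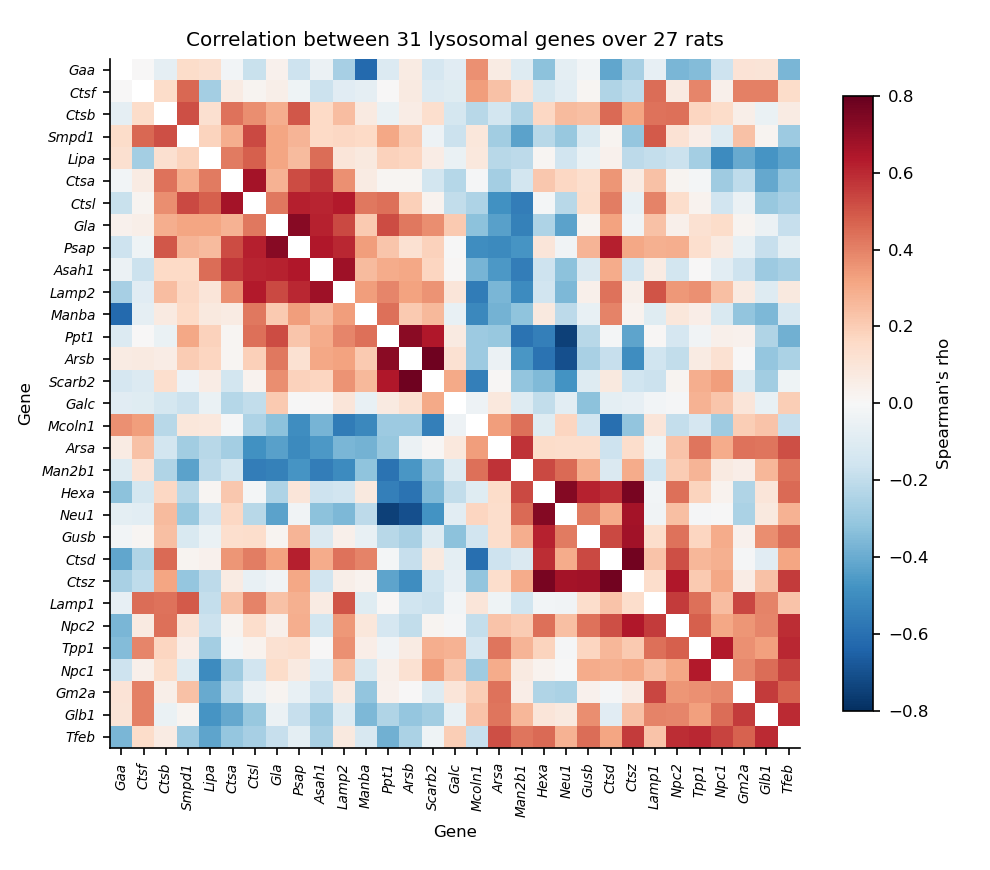
The colour of each square gives Spearman's rho over 27 rats between 2 of the 31 lysosomal genes, red for positive and blue for negative values, with genes ordered by average linkage and the diagonal left white. Red blocks hold Ppt1, Arsb and Scarb2, then Hexa, Neu1, Gusb, Ctsd and Ctsz, and the blue squares between them include Neu1 with Ppt1 (-0.750), while Glb1 stands near Gm2a and Tfeb at the lower right.

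Between the library blocks, 4 of 31 members differed in the edgeR fit, and 18% of all 11716 genes did. Mcoln1 was higher in the libraries from 32, with 659, 711 and 734 normalized counts as lowest, median and highest against 554, 612 and 705 (702 ± 24.4, n = 11, and 618 ± 37.3, n = 16, log2 difference 0.18 ± 0.033, edgeR adjusted p = 2.20e-04). Glb1 was higher too, with 136, 190 and 208 against 108, 132 and 214 (182 ± 22.9 and 147 ± 36.2, 0.32 ± 0.11, edgeR adjusted p = 0.0381). Ctsd was lower, with 2542, 2755 and 2985 against 2773, 3036 and 3938 (-0.15 ± 0.043, edgeR adjusted p = 0.0172), and so was Psap, with 15336, 16211 and 17335 against 16161, 17765 and 21600 (-0.14 ± 0.039, edgeR adjusted p = 0.0150). The ranges of the 2 blocks overlapped in all 4 genes. Without rats 12 and 20 Glb1 was not called (0.28 ± 0.11, edgeR adjusted p = 0.0812). Without rat 3 these 4 were called again and Scarb2 was added (-0.24 ± 0.082, adjusted p = 0.0382). The blocks differ in depth, and depth and library number cannot be told apart. The mean neuron score was -0.181 ± 0.589 (SD) up to 31 and 0.263 ± 0.297 from 32. For the perivascular macrophage score it was 0.295 ± 0.759 and -0.430 ± 0.677, and the other scores lay closer together. The part of these scores in the block differences was not tested. Of the 85 further lysosomal genes, 10 of 77 tested were higher and 11 lower in the later block.

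**Figure D5:**
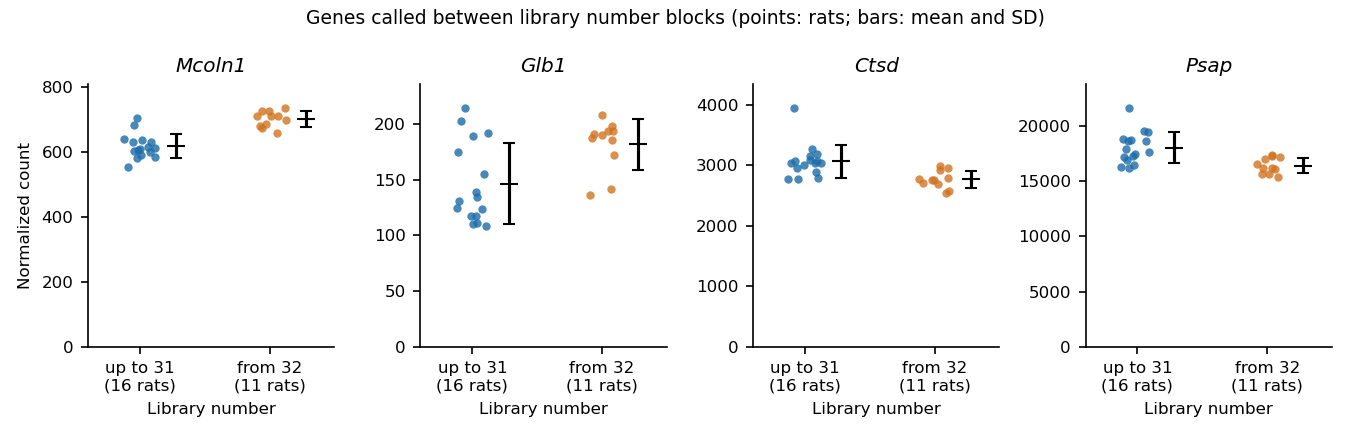
Normalized counts (y axes from 0) of Mcoln1, Glb1, Ctsd and Psap are shown for each rat in the libraries up to 31 (16 rats) and from 32 (11 rats), with the mean and SD as black bars. Mcoln1 and Glb1 have higher means in the later libraries (702 against 618, and 182 against 147), Ctsd and Psap have lower ones, and the points of the blocks overlap in each panel.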

How the data were processed

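mRNA of the mPFC of 27 rats was measured by single-read sequencing. The authors deposited raw counts of reads per gene, without normalization. The submitters' processing notes name Trimmomatic, STAR and HTSeq, without versions. The genome build, the annotation and the strand setting are not given in the sources used here, so counts of overlapping genes and close paralogs are uncertain. The labels and the study's methods differ in the library kit and in the section cut. All 27 columns were used and no pair of libraries was identical. Genes were named from RefSeq (GRCr8). Anxiety scores were not used here.

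Normalized counts are counts divided by DESeq2's median-of-ratios size factors (DESeq2 1.42.0), and log2 levels use a pseudocount of 1. Correlations took genes averaging 10 or more counts, and so did the chi-square dispersion test against counting noise. Covariates (log2 Glb1, log2 Tfeb, 4 marker scores, library block) were fitted with edgeR 4.0.16 (TMM, filterByExpr, quasi-likelihood test) over all genes, and slopes are log2 changes per SD with SE. The Benjamini-Hochberg method adjusted p-values over all genes tested. Correlations used two-sided permutation tests (100000 permutations). Adjustment was over all genes, except for the 7 marker scores set against Glb1 and Tfeb. Alternatives were another scaling, no filter on low counts, DESeq2's Wald test, pseudocount 0.1, the block as a covariate, each block alone, and leaving out rats 12 and 20 or rat 3. Fits, dispersion and permutation tests were tested on simulated data. The work was done in R 4.3.3 and in Python 3.11.15 (pandas 2.3.3, scipy 1.17.1, numpy 2.4.6, matplotlib 3.10.9).

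The members and lists were chosen with earlier results of these data known. All 32 members are described, with values for Glb1, the extremes of mean and spread and those nearest a call. The 5 genes most like Glb1 by rho and at most 4 called genes of the further lists are named, except that in the fit on Tfeb more are named, and 1 gene of these lists is not reported here. The fits without rat 3, the interaction of Glb1 with the block, the correlations of named pairs and the neuron score test were added after the data were seen. Each library is 1 rat, and p-values measure the spread between rats.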

Additional observations from a re-analysis of the deposited data

How the results depend on the processing

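The calls on Glb1 depended on the setting. Against 0 members and 50 genes, DESeq2's Wald test called 2 members and 269 genes, and the block as a covariate 4 members (Tfeb, Npc2, Ctsz at 0.20 and Gusb at 0.23) and 98 genes. DESeq2 size factors called 28 genes, no filter on low counts 24, the block up to 31 22 genes and the 4 marker scores as covariates 122. Without rats 12 and 20, and in the block from 32, 0 genes were called. The slopes of Arsa (-0.074), Lamp1 (-0.001) and Npc1 (-0.025) turned negative in the block from 32. Rank correlation with Glb1 passed for 27 genes with total counts, for 0 genes in the main analysis and under the 5 other alternatives, and for 0 members under all 6.

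For Tfeb (7 members, 1333 genes), no filter on low counts gave 5 members and 1134 genes. Without rats 12 and 20 there were 1 member and 231 genes, and without rat 3 there were 0 members and 55 genes. The block up to 31 gave 4 members and 906 genes, and the block from 32 gave 0 members and 0 genes. For the microglia score (2 members), no filter and leaving out rats 12 and 20 gave 1 member each, both blocks gave 0 members (0 and 2 genes), and the Wald test gave 126 genes. For the oligodendrocyte score (3 members), the Wald test gave 6 members and 274 genes, the block as a covariate 5 members and 390 genes, and the block from 32 gave 0 members and 16 genes. For the astrocyte score (3 members), the Wald test gave 6 members, of which Gaa fell, and 297 genes, the block from 32 gave 0 of either, and DESeq2 size factors, no filter and leaving out rat 3 gave 2 members each, without Lamp1. The meningeal fibroblast score called 178 and 200 genes within the blocks up to 31 and from 32, against 302. Genes correlated with the neuron score numbered 773 without rat 3, against 1297. The cause of these shifts was not tested. The median pairwise rho and the number of members varying beyond counting stayed within 1.5 times of their values under all alternatives run. Counting alone would give 17.5% of a member's variance at the median but 54.3% to 64.9% for Galc, Gla and Manba, whose relations between rats are the least certain.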
